A study of Macaca mulatta with 33 samples.

Results

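The 70 genes described here were chosen because their signal in the rhesus macaque corpus luteum was higher after 6 days of human chorionic gonadotropin (hCG), at luteal day 15, than in untreated day 10 tissue and than after 1 day of hCG. They were taken from 14132 genes with a single symbol, each read by its brightest probe set (highest mean over all 33 arrays). A gene was kept where its day 15 hCG mean exceeded both the untreated day 10 mean and the 1-day hCG mean by at least 0.8 on the log2 scale and reached a log2 signal of 7. Of 78 genes that met these thresholds, 8 were left out by name (CYBRD1, CP, HTRA3 and 5 solute carriers). The genes were thus selected on the measured differences of 12 arrays, all of array set 1, and each difference between untreated, 1-day hCG and 6-day hCG tissue is given as a description with no test. The main tests were made in array set 2, which holds the tissue treated with trilostane and with R5020, apart from day 10 hCG with trilostane. Alternative fits that add the other sets are named where quoted. Set 2 values entered the choice of the probe set that reads each gene, but not the thresholds on the rise.

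Adult cycling females received rising doses of hCG from luteal day 9, a regimen that simulates early pregnancy, and each array carried total RNA of dissected luteal tissue. The day 10 groups were untreated controls (8 arrays), hCG for 1 day (4), hCG with trilostane (TRL, 4) and hCG with TRL and R5020 (4). The day 15 groups were hCG for 6 days (5 arrays), hCG with TRL (4) and hCG with TRL and R5020 (4). TRL blocks 3β-hydroxysteroid dehydrogenase and with it the step from pregnenolone to progesterone; R5020, a progestin made by synthesis, was given to stand in for the lost hormone. No group was collected untreated at day 15, so 5 more days of luteal age and 5 more days of hCG cannot be told apart. The labels do not state that each array came from a separate animal, so the p-values rest only on the spread among these arrays, and that spread may be technical.

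The corpus luteum is a short-lived endocrine gland formed from the ovulated follicle. It secretes progesterone under luteinising hormone, and in a fertile cycle hCG from the embryo acts on the same receptor and extends its life. Its cells are steroid-making luteal cells among endothelial cells, pericytes, fibroblasts and macrophages. The primate gland also makes relaxin, a peptide hormone of the insulin family that rises in early pregnancy. Markers of luteal and granulosa cells (7 measured) had a mean log2 signal of 11.08 to 11.71 on every array of set 2, as the tissue label states.

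Signals are deposited log2 values, so a difference of 1 is a 2-fold difference. The 33 arrays ranged from 2.6 to 15.12, with array medians of 6.13 to 6.32. The number in the array names splits them into 3 sets. Set 1 holds controls 1 to 4, both groups given hCG alone apart from 1 array, and day 10 hCG+TRL. Set 2 holds controls 6 to 9 and, with 3 or 4 arrays each, day 10 hCG+TRL+R5020, day 15 hCG+TRL and day 15 hCG+TRL+R5020. Set 3 holds replicate 3 of day 15 hCG and replicate 4 of both other day 15 groups. Replicates 3 and 5 of day 15 hCG carry the same sample number in their descriptions and differed with an SD of 0.194 over probe sets. The replicate 4 arrays of hCG+TRL and hCG+TRL+R5020 differed by 0.193, against 0.275 for the next closest pair. None of the set 3 arrays entered the main tests, although the alternative fits with a set term included them.

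In set 1, the day 15 hCG mean of the 70 genes exceeded the untreated mean by a median of 1.13, from 0.80 for FGL1 to 3.10 for HP, and the 1-day hCG mean by a median of 1.09. After 1 day of hCG the median difference from untreated tissue was 0.04, and 33 of the 70 genes lay below their untreated mean. The rule does not require a flat first day, and 5 genes were already at least 0.8 above untreated tissue then. HP was 1.14 above it, KYNU 0.94, TRPM3 0.85, MGARP 0.85 and PSME3 0.84. LOC695105 was 0.98 below untreated tissue on the first day, with a difference of -0.98. FGL1 (0.801) and AZIN2 (0.817) lay just inside the threshold against untreated tissue, and PLEKHF1 (0.771) and CYP2R1 (0.756) just outside. Against 1 day of hCG, EPHX1 (0.81) and LIPM (0.821) lay just inside, and MEGF9 (0.783) and FADS2 (0.781) just outside. On the day 15 level, REEP1 (7.081) and RRAGD (7.222) lay just inside, and CNGA1 (6.968) and LUM (6.964) just outside. All these differences are taken from the set 1 controls. The set 2 controls lay above the set 1 controls for 50 of the 70 genes, with a median difference of 0.24. Over the 8407 genes with a day 15 hCG level of at least 7, 63.3% lay above and the median was 0.08.

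The membership depended on single arrays. Leaving out 1 of the 12 arrays at a time gave lists of 59 to 97 genes, and 32 of the 70 genes stayed in all 12 lists. The longest list, 97 genes, came without day 15 hCG replicate 5, which had the lowest level of its group for 32 of the 70 genes. Replicate 2 of the same group was highest for 35 of them, and without it 59 genes met the rule. A threshold of 1 in place of 0.8 left 31 genes.

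**Figure D1:**
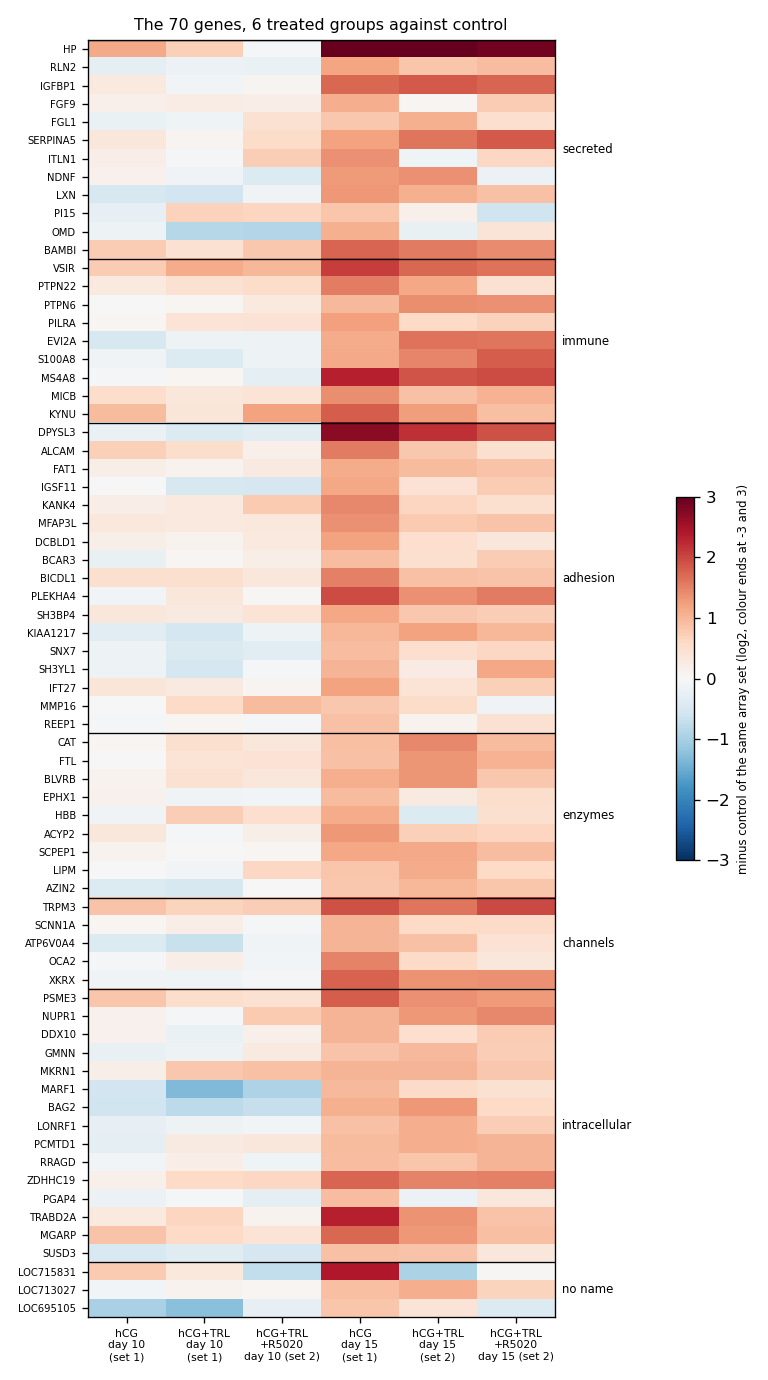
Mean log2 difference from the untreated control of the same array set for the 70 genes (rows, by function) in the 6 treated groups (columns); red is above control and blue below, and colour ends at -3 and 3. The 3 day 15 columns are mostly red, while the 3 day 10 columns are pale; the day 15 hCG column was used to choose the genes.

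With TRL present for 6 days, most of the 70 genes were again high against day 10 tissue. In set 2, day 15 hCG+TRL exceeded the untreated controls for 65 of the 70 genes, with a median of 0.98, against a median of -0.01 over the 8407 genes with a day 15 hCG level of at least 7. Limma called 24 members higher (34.3%) and 0 lower at a Benjamini-Hochberg adjusted p under 0.05. Of all probe sets 1.45% were called higher and 1.3% lower, and of the 8407 genes 2.78% and 2.64%. With R5020 added, day 15 tissue exceeded the same controls for 66 of the 70 genes, with a median of 0.78 against 0.01. Limma called 16 members higher (22.9%) and 0 lower, against 0.25% of all probe sets and 0.559% of the 8407 genes called higher, and 0.32% and 0.583% called lower. In both comparisons 0 members were lower at an unadjusted p under 0.05. No share over all probe sets is given here for that threshold, so this count cannot be judged. These 2 comparisons share their 4 control arrays. Leaving out control 6, 8 or 9 reduced the second count to 10, 10 and 9, and leaving out treated replicate 1 or 2 reduced it to 6. In bulk tissue, more cells of a type and more RNA per cell cannot be told apart.

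**Figure D2:**
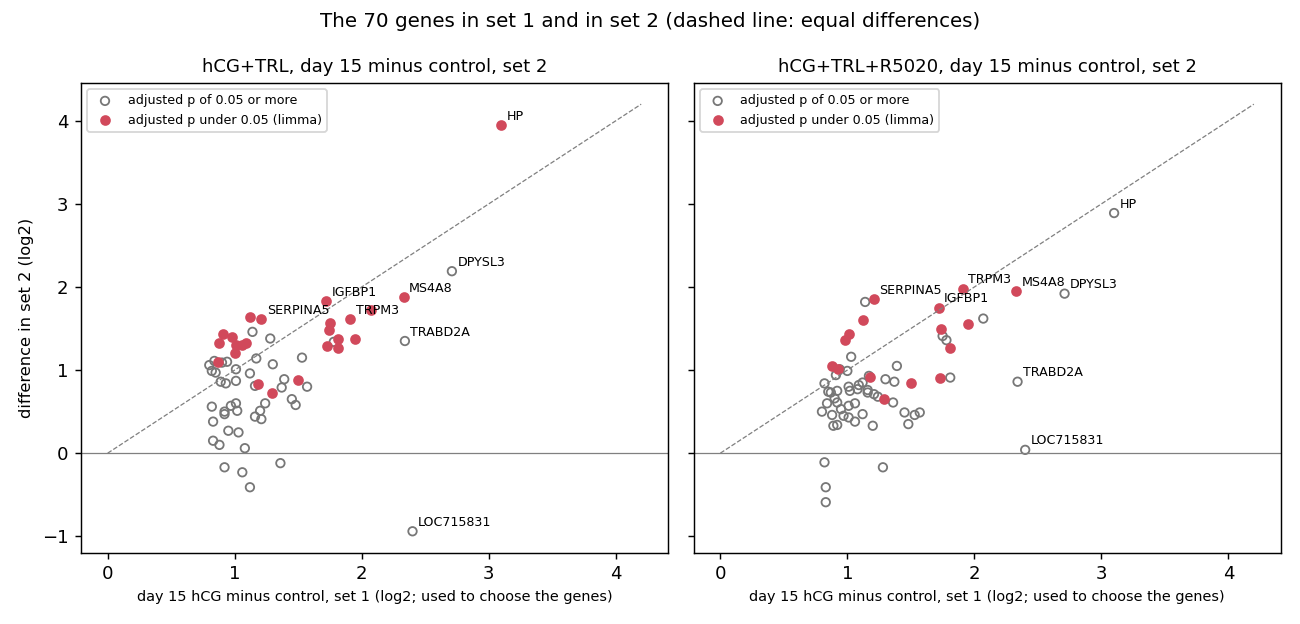
Difference from control of each of the 70 genes in set 2 (vertical axis, log2; left hCG+TRL at day 15, right hCG+TRL+R5020 at day 15) against its day 15 hCG difference in set 1 (horizontal axis, log2, used to choose the genes). Filled points passed limma's adjusted p of 0.05 (24 on the left, 16 on the right), and most points lie above 0; LOC715831 lies at -0.94 on the left and 0.04 on the right.

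Secreted proteins and receptors at the cell surface that bind them formed a group of 12. Limma called 5 of them higher in day 15 hCG+TRL than in control (HP, IGFBP1, SERPINA5, RLN2 and BAMBI) and 3 in day 15 hCG+TRL+R5020, with median differences of 1.07 and 0.83 over the 12.

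IGFBP1 encodes a secreted protein that binds insulin-like growth factors, and its probe set was among the brightest of the 70. The 4 set 2 controls read 12.01, 12.11, 13.05 and 12.31 (12.37 ± 0.47, SD, n = 4). Day 15 hCG+TRL read 14.01, 14.28 and 14.32 (14.2 ± 0.17, n = 3), and day 15 hCG+TRL+R5020 read 14.26, 14.19 and 13.92 (14.13 ± 0.18, n = 3). All 6 treated arrays lay above all controls, as did the 4 day 15 hCG arrays of set 1 at 13.86 to 14.41. IGFBP1 rose by 1.83 ± 0.24 (SE) with TRL (3.56-fold, limma adjusted p = 0.0013) and by 1.75 ± 0.24 with TRL and R5020 (3.37-fold, adjusted p = 0.0057). Of 15 measured genes of insulin and IGF signalling, IGFBP1 was the 1 called higher with TRL, and IGFBP2 was the 1 called lower (-0.67 ± 0.14, limma adjusted p = 0.018).

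RLN2 encodes relaxin, and its probe set type can match near-identical copies, so the signal may not belong to 1 relaxin gene. Set 2 controls read 13.91, 13.68, 13.63 and 13.67, day 15 hCG+TRL 14.68, 14.69 and 14.3, and day 15 hCG+TRL+R5020 14.75, 14.59 and 14.59. The control and treated ranges did not overlap, and all values lay near the top of the scale of the arrays. RLN2 rose by 0.83 ± 0.16 (limma adjusted p = 0.015) and by 0.92 ± 0.16 (adjusted p = 0.021). The first call was lost without TRL replicate 1 or 2 (limma adjusted p = 0.069 and 0.068), and the second without control 8 or 9 or R5020 replicate 1 or 2 (adjusted p = 0.058 to 0.11). Neither comparison was called in a fit of all 33 arrays with a term for array set (limma adjusted p = 0.15 and 0.18). In set 1, control 1 and 1-day hCG replicate 1 both read 11.62, far below the 13.3 to 14 of the other arrays of those groups. Without control 1, RLN2 did not meet the rule.

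SERPINA5, the protein C inhibitor, is a secreted inhibitor of serine proteases. Set 2 controls read 9.54, 10.22, 9.66 and 9.14 (9.64 ± 0.45, n = 4). Day 15 hCG+TRL read 10.7, 11.6 and 11.43, and day 15 hCG+TRL+R5020 read 11.42, 11.46 and 11.59. The treated arrays lay above every set 2 control, although control 2 of set 1 read 11.99 and overlapped them. SERPINA5 rose by 1.61 ± 0.24 (3.04-fold, limma adjusted p = 0.0033) and by 1.85 ± 0.24 (3.61-fold, adjusted p = 0.0049). A dimmer probe set of the gene gave 0.59 (adjusted p = 0.41) and 0.51 (adjusted p = 0.64).

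HP encodes haptoglobin, the acute phase protein that binds free haemoglobin, and had the largest difference of the 70 genes in set 1 and against control in set 2. Set 2 controls read 6.62, 8.57, 9.35 and 7.45 (8.0 ± 1.2, n = 4), day 15 hCG+TRL 11.96, 12.62 and 11.27 (11.95 ± 0.68, n = 3), and day 15 hCG+TRL+R5020 10.94, 12.87 and 8.85 (10.89 ± 2.01, n = 3). The TRL arrays lay above all controls, while 1 of the 3 R5020 arrays lay within the control range. HP rose by 3.95 ± 0.82 with TRL (15.5-fold, limma adjusted p = 0.02), and its difference with R5020 added was 2.89 ± 0.82 (adjusted p = 0.18). The call with TRL was lost without control 6 or 9 or TRL replicate 1 or 2 (limma adjusted p = 0.054 to 0.087). The day 15 hCG arrays of set 1 read 10.93, 9.77, 10.78 and 8.12, below the TRL arrays of set 2, but the sets differ and the untreated controls of set 2 averaged 1.19 more than those of set 1. Of 19 measured C/EBP and acute phase genes, HP and CEBPA, a transcription factor that drives acute phase genes, were called higher with TRL (CEBPA 1.69 ± 0.39, limma adjusted p = 0.033), and the median of the list was -0.02. CEBPA is not among the 70 genes.

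BAMBI, a decoy receptor that dampens TGF-beta and BMP signals, read 7.41, 7.91, 7.73 and 6.99 in set 2 controls and 8.88, 9.19 and 9.16 with TRL, with no overlap. It read 9.16, 9.44 and 8.18 with TRL and R5020. BAMBI rose by 1.57 ± 0.30 with TRL (limma adjusted p = 0.013), and its difference with R5020 added was 1.41 ± 0.30 (adjusted p = 0.051). The call with TRL was lost without TRL replicate 2 or 3 (limma adjusted p = 0.052 and 0.051). Of 26 measured TGF-beta, BMP, activin and inhibin genes, none of them among the 70, 2 were called higher (TGFBR1 and TGFBR3) and 3 lower (BMP4, FSTL3 and ID4) in the same comparison with TRL. The other secreted members did not pass, although 10 of the 12 lay above control with TRL. NDNF differed from control by 1.38 ± 0.48 (limma adjusted p = 0.17) and FGL1 by 1.06 ± 0.32 (adjusted p = 0.10). FGF9, a fibroblast growth factor, differed by 0.06 with TRL, and osteomodulin (OMD) and intelectin 1 (ITLN1) by -0.23 and -0.12.

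**Figure D3:**
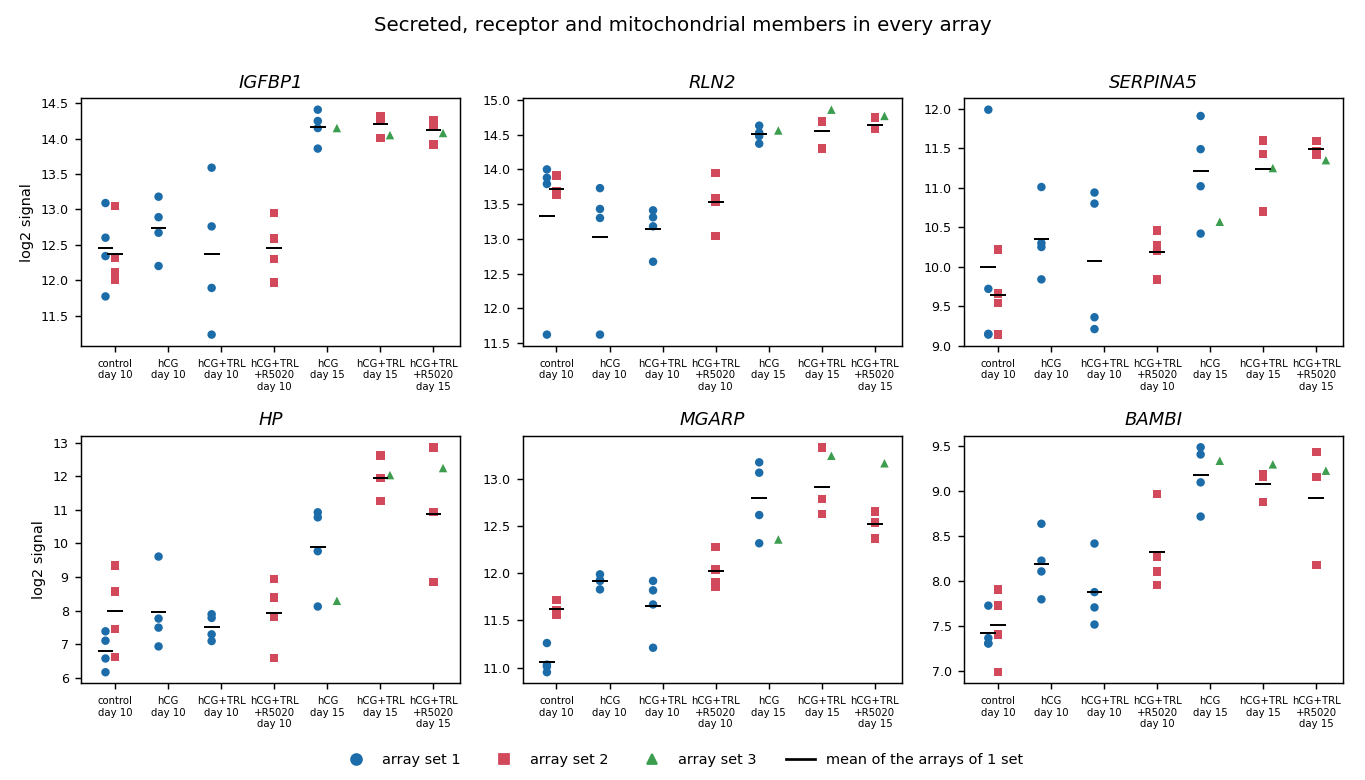
Log2 signal (vertical axis) of IGFBP1, RLN2, SERPINA5, HP, MGARP and BAMBI on every array by group (horizontal axis); circles are set 1, squares set 2 and triangles set 3, and bars are the means of the arrays of 1 set. All day 15 IGFBP1 arrays lie at 13.86 or above, while HP spreads from 8.12 to 12.87 among the day 15 arrays.

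Genes linked to leukocytes or immune reactions formed a group of 9. MS4A8 was placed among them for its family, which does not make it a leukocyte gene. Limma called 5 higher with TRL (MS4A8, VSIR, EVI2A, PTPN6 and KYNU) and 3 higher with TRL and R5020 (MS4A8, EVI2A and PTPN6), with medians of 1.40 and 1.36 over the 9. All 9 lay above control in both comparisons.

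MS4A8 belongs to the 4-pass membrane family of the B-cell marker CD20. Set 2 controls read 7.62, 8.42, 8.4 and 8.1 (8.13 ± 0.37, n = 4), day 15 hCG+TRL 10.15, 10.24 and 9.64 (10.01 ± 0.33, n = 3) and day 15 hCG+TRL+R5020 9.91, 10.79 and 9.53 (10.08 ± 0.65, n = 3). Every day 15 array of the series, at 9.44 to 11.01, lay above every day 10 array, at 7.06 to 8.45. MS4A8 rose by 1.88 ± 0.29 with TRL (3.68-fold, limma adjusted p = 0.004) and by 1.95 ± 0.29 with TRL and R5020 (3.85-fold, adjusted p = 0.011). Its 2 other probe sets, both dim at mean signals of 4.27 and 4.88, did not follow (differences of -0.13 and -0.19 with TRL).

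PTPN6 (SHP-1) is a phosphatase that restrains signalling in blood cells, and EVI2A is a membrane protein of blood cells. PTPN6 read 7.5, 8.05, 7.3 and 7.05 in set 2 controls, 8.98, 8.9 and 8.74 with TRL and 9.11, 8.98 and 8.42 with TRL and R5020. EVI2A read 7.19, 7.47, 7.73 and 6.87 in these controls, 9.17, 9.1 and 8.58 with TRL and 8.53, 9.46 and 8.74 with TRL and R5020. For both genes the set 2 treated arrays lay above all set 2 controls, while the 2 set 3 arrays with TRL read 7.94 and 8.11 for PTPN6, near its highest control. PTPN6 rose by 1.40 ± 0.21 (limma adjusted p = 0.0033) and 1.36 ± 0.21 (adjusted p = 0.012), and EVI2A by 1.64 ± 0.26 (adjusted p = 0.0041) and 1.60 ± 0.26 (adjusted p = 0.015). With R5020 added, PTPN6 lost its call without treated replicate 1 or 2 (limma adjusted p = 0.066 and 0.06) and EVI2A without replicate 2 (adjusted p = 0.064).

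VSIR (VISTA) is an inhibitory receptor of myeloid and T cells, and KYNU is kynureninase, an enzyme of tryptophan breakdown. VSIR read 6.9, 8.02, 6.55 and 6.21 in set 2 controls and 8.62, 8.97 and 8.34 with TRL (1.72 ± 0.36, limma adjusted p = 0.02). With TRL and R5020 it read 8.19, 8.73 and 8.7 (1.62 ± 0.36, adjusted p = 0.065). KYNU rose by 1.26 ± 0.30 with TRL (limma adjusted p = 0.037), and its next brightest probe set by 1.55 (adjusted p = 0.031). Of 2 dim ones, 1 was called (0.55, adjusted p = 0.034) and 1 was not (0.27, adjusted p = 0.18). The set 3 arrays did not follow: KYNU read 6.92 with TRL and 7.45 with R5020 added, against 7.08 to 8.14 in set 2 controls. VSIR lost its call with TRL without control 6, 8 or 9 or TRL replicate 1 or 2 (limma adjusted p = 0.051 to 0.088), and KYNU without any of control 6, 8 and 9, TRL replicates 1 and 3 and day 10 hCG+TRL+R5020 replicate 3 (adjusted p = 0.05 to 0.14) and in the fit of all 33 arrays (1.04 ± 0.41, adjusted p = 0.17). S100A8, a calcium-binding protein of neutrophils and monocytes, did not pass: 1 TRL array read 11.01 and the others 6.07 and 7.2, against 6.23 to 7.1 in controls.

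Macrophage markers moved in the same comparison. Of 13 measured macrophage markers, none of them among the 70 genes, 9 were called higher with TRL (among them C1QB, 1.72 ± 0.34, limma adjusted p = 0.015, and CSF1R, 1.28 ± 0.27, adjusted p = 0.023), and all 13 lay above control with a median of 1.28. With R5020 added, limma called 0 of the 13 (4 at an unadjusted p under 0.05), all 13 lay above control and the median was 0.59. In R5020 added against TRL alone at day 15, 0 of the 13 lay above 0, the median was -0.84 and limma called 0. At an unadjusted p under 0.05, 7 of the 13 differed in that comparison, against 4.58% of all probe sets. The mean log2 signal of the 13 markers per array was 8.58 to 9.69 in set 2 controls, 10.22 to 10.62 with TRL and 9.57 to 9.84 with TRL and R5020. In set 1 it was 8.79 to 10.17 in controls and 9.28 to 9.72 in day 15 hCG tissue, where the 70 genes were high by choice and the markers overlapped control. The 2 set 3 arrays with TRL read 8.44 and 8.73 for these markers. There VSIR read 7.74 and 7.65, PTPN6 7.94 and 8.11 and KYNU 6.92 and 7.45. EVI2A read 8.82 and 8.84 on them and MS4A8 10.92 and 11.01, each above all of its set 2 controls. The markers' part in the leukocyte results was not tested. Of 7 measured neutrophil and mast cell markers, which include S100A8, and of 7 T and NK cell markers, limma called 0 in either comparison against control; at an unadjusted p under 0.05, 1 neutrophil or mast cell marker differed with TRL and 2 T and NK cell markers with R5020 added.

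**Figure D4:**
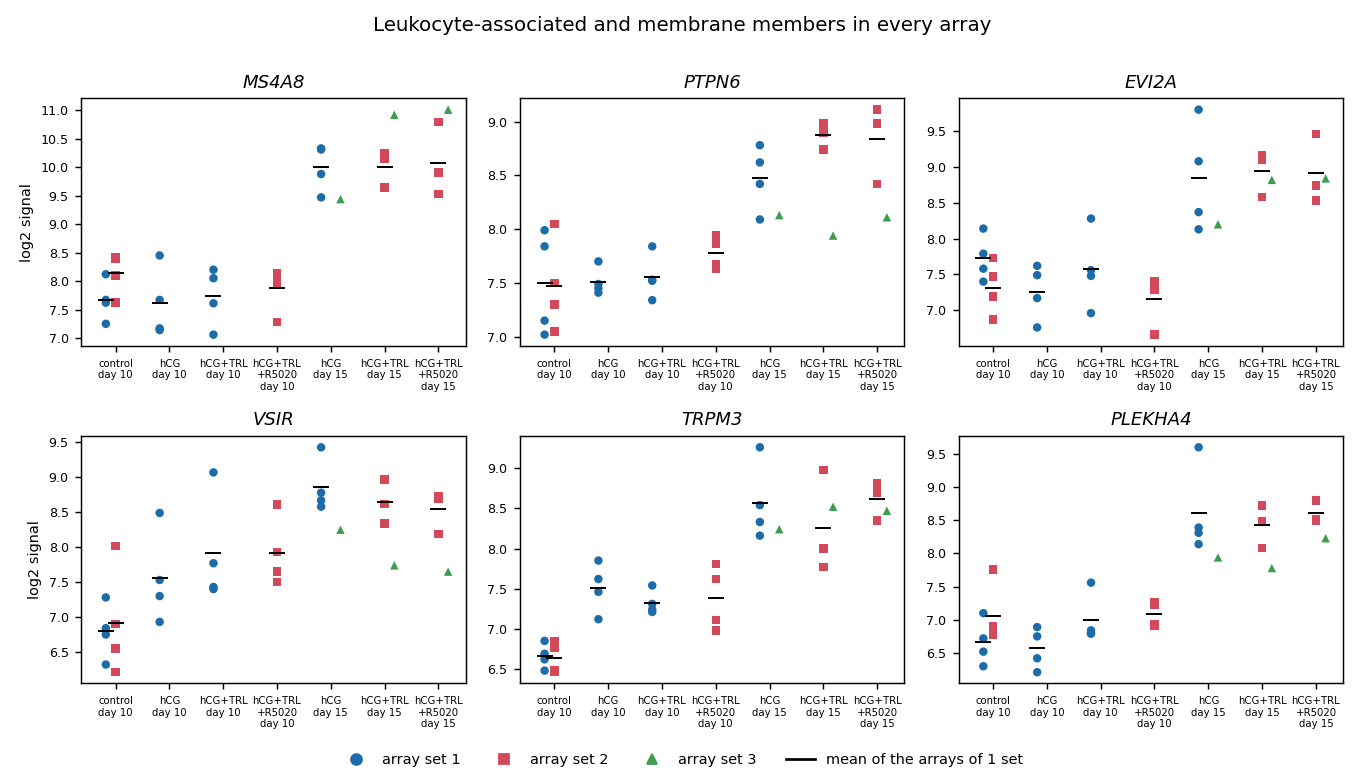
Log2 signal (vertical axis) of MS4A8, PTPN6, EVI2A, VSIR, TRPM3 and PLEKHA4 on every array by group (horizontal axis); circles are set 1, squares set 2 and triangles set 3, and bars are the means of the arrays of 1 set. MS4A8 separates all day 15 arrays (9.44 or more) from all day 10 arrays (8.45 or less), while VSIR already reads up to 9.07 at day 10.

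Enzymes of redox, iron, haem and small-molecule metabolism formed a group of 9, of which limma called 4 higher with TRL (BLVRB, CAT, FTL and ACYP2) and 2 higher with TRL and R5020 (FTL and ACYP2). BLVRB, biliverdin reductase B, read 8.92, 9.77, 9.19 and 9.14 in set 2 controls, 10.74, 10.57 and 10.44 with TRL and 10.18, 10.01 and 10.02 with TRL and R5020. In set 2 both treated groups lay above all controls and apart from each other. The set 3 arrays read 10.03 with TRL and 9.99 with R5020 added. BLVRB rose by 1.33 ± 0.19 with TRL (2.51-fold, limma adjusted p = 0.0022). FTL, the light chain of the iron store ferritin, read 9.0 to 9.98 in set 2 controls, 10.66 to 10.87 with TRL and 10.19 to 10.88 with R5020 added, and rose by 1.32 ± 0.21 (adjusted p = 0.0043) and 1.05 ± 0.21 (adjusted p = 0.04). CAT, catalase, which breaks down hydrogen peroxide, rose from 6.91 ± 0.43 (n = 4) to 8.35 ± 0.22 (n = 3) with TRL (limma adjusted p = 0.012), and its dimmer probe set gave 0.36 (adjusted p = 0.21). On the set 3 arrays CAT read 7.32 with TRL and 7.12 with R5020 added, against 6.28 to 7.2 in set 2 controls. ACYP2 read 10.4 and 10.36 there, within its set 2 control range of 9.95 to 10.45. FTL read 10.57 and 10.56, above its set 2 controls. Of 18 measured antioxidant and detoxification genes, CAT and SOD2, a mitochondrial superoxide dismutase, were called higher with TRL (SOD2 0.67 ± 0.15, adjusted p = 0.033). Of 8 measured metal-handling genes, FTL was called higher and TFRC, the transferrin receptor for iron uptake, lower (-0.56 ± 0.10, adjusted p = 0.011).

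HBB, the beta chain of haemoglobin, is a marker of red cells rather than of luteal cells. It read 6.53 to 8.65 in set 2 controls and 6.71 to 7.14 with TRL, a difference of -0.41 ± 0.45 (limma adjusted p = 0.75). The 2 measured red cell markers, of which HBB is 1, averaged 6.54 to 7.90 in these controls and 6.71 to 6.83 with TRL.

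Adhesion, cytoskeleton and trafficking genes formed the largest group, 17 genes. Limma called 3 higher with TRL (PLEKHA4, BICDL1 and KIAA1217) and 2 with TRL and R5020 (PLEKHA4 and BICDL1), and the medians were 0.65 and 0.75. PLEKHA4, a phosphoinositide-binding adaptor at the plasma membrane, read 6.78, 7.76, 6.78 and 6.91 in set 2 controls, 8.72, 8.48 and 8.08 with TRL and 8.8, 8.5 and 8.52 with TRL and R5020. The treated arrays lay above all of these controls. PLEKHA4 rose by 1.37 ± 0.22 (limma adjusted p = 0.0051) and 1.55 ± 0.22 (adjusted p = 0.0088), and its second probe set was called higher too (0.91, adjusted p = 0.012, and 0.94, adjusted p = 0.025). Of 5 other probe sets of KIAA1217, 3 were called higher with TRL, by 1.56, 1.26 and 1.14, and 2 were not (0.86, limma adjusted p = 0.067, and -0.05, adjusted p = 0.96). The BICDL1 calls rest on 1 probe set. Of its 3 other probe sets, those at mean signals of 7.20 and 6.56 gave 0.61 (limma adjusted p = 0.12) and 0.40 (adjusted p = 0.14) with TRL, and a dim one at 5.23 was called lower (-1.53, adjusted p = 0.047).

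DPYSL3, a cytoskeletal regulator of neurite and cell migration, had the second largest difference in set 1 and did not pass in set 2. Its set 2 controls read 8.17, 8.29, 8.24 and 9.35, and day 15 hCG+TRL read 10.35, 11.02 and 10.73, with no overlap (2.19 ± 0.60, limma adjusted p = 0.072). Day 15 hCG+TRL+R5020 read 11.63, 11.15 and 8.51, so replicate 3 fell within the control range (1.92 ± 0.60, adjusted p = 0.23). That array was the lowest of its group for 32 of the 70 genes, HP, BAMBI and XKRX among them.

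Among 5 channels, pumps and membrane transport genes, 1 was called higher in each comparison. TRPM3, a calcium-permeable cation channel, read 6.48, 6.84, 6.77 and 6.46 in set 2 controls, 7.77, 8.98 and 8.0 with TRL and 8.81, 8.7 and 8.35 with TRL and R5020. The treated arrays lay above all controls. TRPM3 rose by 1.61 ± 0.26 (3.05-fold, limma adjusted p = 0.0051) and 1.98 ± 0.26 (3.95-fold, adjusted p = 0.0049), and its second probe set by 1.15 (adjusted p = 0.017) and 1.59 (adjusted p = 0.0097). Its dimmest probe set was not called (0.29, limma adjusted p = 0.31, and 0.51, adjusted p = 0.12). TRPM3 was not flat at day 10: hCG for 1 day read 7.12 to 7.85 in set 1, above its controls at 6.48 to 6.85. XKRX, of the XK membrane protein family, read 7.37 to 7.8 in set 2 controls and 8.38 to 9.21 with TRL, with no overlap and no call (1.34 ± 0.39, limma adjusted p = 0.094). The epithelial sodium channel subunit SCNN1A and the proton pump subunit ATP6V0A4 differed by 0.60 ± 0.25 and 0.87 ± 1.01 and were not called.

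Nuclear, protein-handling and organelle genes formed a group of 15, with 6 called higher with TRL (PSME3, ZDHHC19, MGARP, NUPR1, BAG2 and LONRF1) and 5 with TRL and R5020 (PSME3, ZDHHC19, MGARP, NUPR1 and RRAGD). PSME3, an activator of the proteasome, read 10.26, 10.86, 10.36 and 9.89 in set 2 controls, 11.84, 11.59 and 11.73 with TRL and 11.76, 12 and 11.09 with TRL and R5020. PSME3 rose by 1.38 ± 0.22 (limma adjusted p = 0.0046) and 1.27 ± 0.22 (adjusted p = 0.021), with no overlap with control. Its second probe set, at a mean signal of 7.09, did not follow (0.00 and -0.10). ZDHHC19, a palmitoyltransferase, rose from 9.11 ± 0.65 (n = 4) to 10.59 ± 0.04 (n = 3) and 10.61 ± 0.34 (n = 3), differences of 1.48 ± 0.27 (adjusted p = 0.01) and 1.50 ± 0.27 (adjusted p = 0.023). With R5020 added, both genes lost their call without control 8 or 9 or treated replicate 1 or 2, and PSME3 also without control 6 (limma adjusted p = 0.05 to 0.13).

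MGARP, a mitochondrial protein of steroid-making tissues, gave the smallest p of the 70 with TRL. Its set 2 controls read 11.61, 11.56, 11.61 and 11.72, day 15 hCG+TRL 12.79, 13.34 and 12.63, and day 15 hCG+TRL+R5020 12.66, 12.37 and 12.54. The controls were tight, and all treated arrays lay above them. MGARP rose by 1.29 ± 0.15 (2.45-fold, limma adjusted p = 0.0008) and 0.90 ± 0.15 (1.86-fold, adjusted p = 0.016). The second call was lost without control 6 or R5020 replicate 1 (limma adjusted p = 0.051 and 0.088). Its 3 other probe sets, at mean signals of 9.30 to 9.90, gave 0.06 to 0.20 with TRL and were not called, so the result rests on 1 probe set.

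The stress-response regulator NUPR1 rose by 1.30 ± 0.23 with TRL (limma adjusted p = 0.0089) and 1.44 ± 0.23 with R5020 added (adjusted p = 0.015). TRABD2A, a membrane protease that acts on WNT proteins, read 9.45, 10.52, 9.72 and 8.48 in set 2 controls and 11.19, 10.79 and 10.69 with TRL (1.35 ± 0.41, adjusted p = 0.11). Geminin (GMNN), an inhibitor of DNA replication licensing, differed by 0.97 ± 0.26 (adjusted p = 0.065). DDX10, an RNA helicase, is uncertain: the probe set that met the rule gave 0.51 with TRL and was not called (limma adjusted p = 0.13). Its 3 other probe sets gave -1.33, -1.31 and -1.21 (limma adjusted p = 0.05, 0.034 and 0.018). In set 1 their day 15 hCG means also lay below untreated tissue, by -1.12, -1.22 and -1.12. Of the 3 members with no gene name, 0 were called, and LOC715831 read 6.1 to 6.33 with TRL against 7.05 to 7.28 in controls.

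After 1 day of treatment with TRL, the 70 genes as a group lay near untreated tissue. In set 1, day 10 hCG+TRL differed from untreated tissue by a median of 0.09 over the 70 genes and from day 10 hCG by -0.07, against -0.04 and -0.08 over the 8407 genes. These arrays share the rule's controls, so no test was made. The extremes against untreated tissue were VSIR at 1.12 and MARF1, an RNA-binding protein of the oocyte, at -1.33. In set 2, day 10 hCG+TRL+R5020 differed from control by a median of 0.16, with 42 of 70 genes above 0, against 0.01 over the 8407 genes. Limma called 0 members higher and 0 lower, where 0.104% of all probe sets were called higher and 0.0967% lower. At an unadjusted p under 0.05, 15 members differed (21.4%), against 8.64% of all probe sets and 11.9% of the 8407 genes. Of these 15, 13 were higher (18.6% of the members), against 4.04% and 5.59%. MMP16, a membrane-bound matrix metalloprotease, came nearest to the threshold: controls read 6.8, 6.41, 7.43 and 6.67, and day 10 hCG+TRL+R5020 read 7.83, 7.59, 7.63 and 8.08, with no overlap (0.95 ± 0.18, limma adjusted p = 0.054). KYNU followed (1.20 ± 0.27, adjusted p = 0.097), with controls at 7.08 to 8.14 and treated arrays at 8.64 to 9.3.

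Within the tissue that received hCG, TRL and R5020, the step from day 10 to day 15 was tested on arrays of set 2 alone. Of the 70 genes, 60 were higher at day 15, with a median of 0.61 against 0.01 over the 8407 genes. Limma called 10 members higher (14.3%), against 0.142% of all probe sets and 0.393% of the 8407 genes. It called 1 member lower (1.43%), MMP16, against 0.309% of all probe sets and 0.595% of the 8407 genes. Leaving out day 10 replicate 1, 2 or 3 reduced the 10 calls to 6, 5 and 6, and leaving out day 15 replicate 1 reduced them to 4.

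MS4A8 had the largest called rise in that step, from 7.28, 8.1, 8.13 and 7.97 at day 10 to 9.91, 10.79 and 9.53 at day 15 (2.21 ± 0.29, 4.62-fold, limma adjusted p = 0.0054). EVI2A rose by 1.75 ± 0.26 and PLEKHA4 by 1.52 ± 0.22 (both adjusted p = 0.0089). IGFBP1 rose from 11.97, 12.3, 12.95 and 12.59 to the day 15 values given above (1.67 ± 0.24, 3.19-fold, adjusted p = 0.0083). RLN2 rose from 13.04, 13.58, 13.95 and 13.54 (1.12 ± 0.16, 2.17-fold, limma adjusted p = 0.0089). For each of these 5 genes every day 15 array lay above every day 10 array. SERPINA5 (1.30 ± 0.24, adjusted p = 0.033) and PTPN6 (1.06 ± 0.21, adjusted p = 0.042) were also called. PLEKHA4 and RLN2 each lost their call without day 15 replicate 1 (both limma adjusted p = 0.06). SERPINA5 lost its call without day 10 replicate 1, 2 or 3 or any day 15 array (adjusted p = 0.057 to 0.12). In the fit of all 33 arrays with a set term, RLN2 (1.13 ± 0.38, limma adjusted p = 0.17) and SERPINA5 (1.29 ± 0.46, adjusted p = 0.21) were not called. PTPN6 lost its call without 10 of the 14 arrays of set 2, each in turn (adjusted p = 0.054 to 0.21).

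The remaining calls in the same step were MARF1, the chaperone cofactor BAG2 and the amino acid sensing GTPase RRAGD. MARF1 rose by 1.37 ± 0.24 (limma adjusted p = 0.025), from 9.65 ± 0.50 (n = 4) to 11.03 ± 0.37 (n = 3), where the untreated controls averaged 10.58 ± 0.24 (n = 4). BAG2 rose by 1.29 ± 0.25 (adjusted p = 0.038), from 8.44 ± 0.15 to 9.72 ± 0.59, against 9.12 ± 0.14 in controls. For both genes the day 10 treated arrays lay below all 4 controls, a difference of -0.93 ± 0.22 (limma adjusted p = 0.12) for MARF1 and -0.69 ± 0.23 (adjusted p = 0.34) for BAG2. The 1 other probe set of each gene was not called in the step from day 10 to day 15 (MARF1 0.77, limma adjusted p = 0.16; BAG2 0.87, adjusted p = 0.20).

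MMP16 went the other way. From 7.83, 7.59, 7.63 and 8.08 at day 10 it fell to 6.94, 6.61 and 6.62 at day 15, a difference of -1.06 ± 0.20 (limma adjusted p = 0.034), with no overlap. The call was lost when any 1 array of either group was left out (adjusted p = 0.06 to 0.12) and in the fit of all 33 arrays (-0.85 ± 0.28, adjusted p = 0.16). Its 2 other probe sets gave -0.62 (limma adjusted p = 0.20) and -0.60 (adjusted p = 0.16). Day 15 hCG+TRL read 7.49, 7.37 and 7.32 in set 2, yet the set 3 arrays of the day 15 groups with TRL read 8.90 and 8.86. Both set 3 values lay above every set 2 array of the gene.

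R5020 added to TRL at day 15 was compared on 3 arrays against 3. The 70 genes differed by a median of -0.09, with 27 above 0 and 43 below. Over the 8407 genes the median was 0.02, and 56.5% lay above 0. Limma called 0 members higher and 0 lower, against 0% and 0.00379% of all probe sets. At an unadjusted p under 0.05, 7 members differed (10%), against 4.58% of all probe sets and 5.39% of the 8407 genes. The interval of the difference limits how alike the groups can be called: its 95% half-width had a median of 0.64 over the 70 genes, from 0.31 to 2.31, and 43 of the 70 intervals lay within a difference of 1 either way.

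For IGFBP1 the difference with R5020 was -0.08 (95% interval -0.62 to 0.47), for RLN2 0.09 (-0.28 to 0.46) and for MS4A8 0.07 (-0.60 to 0.74). NDNF, a secreted neurotrophic factor, had the largest difference among named genes: day 15 hCG+TRL read 8.26, 8.2 and 7.17 and day 15 hCG+TRL+R5020 read 7.18, 6.58 and 5.22. These ranges met at their edge, and the difference was -1.55 (-2.65 to -0.44, limma adjusted p = 0.78). Its 2 other probe sets gave -1.60 (adjusted p = 0.31) and -1.16 (adjusted p = 0.19), and both were called higher with TRL than in control (1.64, adjusted p = 0.016, and 1.34, adjusted p = 0.0036). On the set 3 arrays NDNF read 8.24 with TRL and 8.04 with R5020 added. SH3YL1, a phosphoinositide-binding protein, differed by 0.92 (0.12 to 1.72, adjusted p = 1.00) and HP by -1.06 (-2.95 to 0.82, adjusted p = 1.00). BLVRB (-0.51, -0.94 to -0.08) and MGARP (-0.40, -0.74 to -0.06) were lower with R5020 at an unadjusted p under 0.05 and did not pass adjustment (limma adjusted p = 0.98 and 0.99). On the set 3 arrays BLVRB read 10.03 with TRL and 9.99 with R5020 added, and MGARP 13.25 and 13.17.

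**Figure D5:**
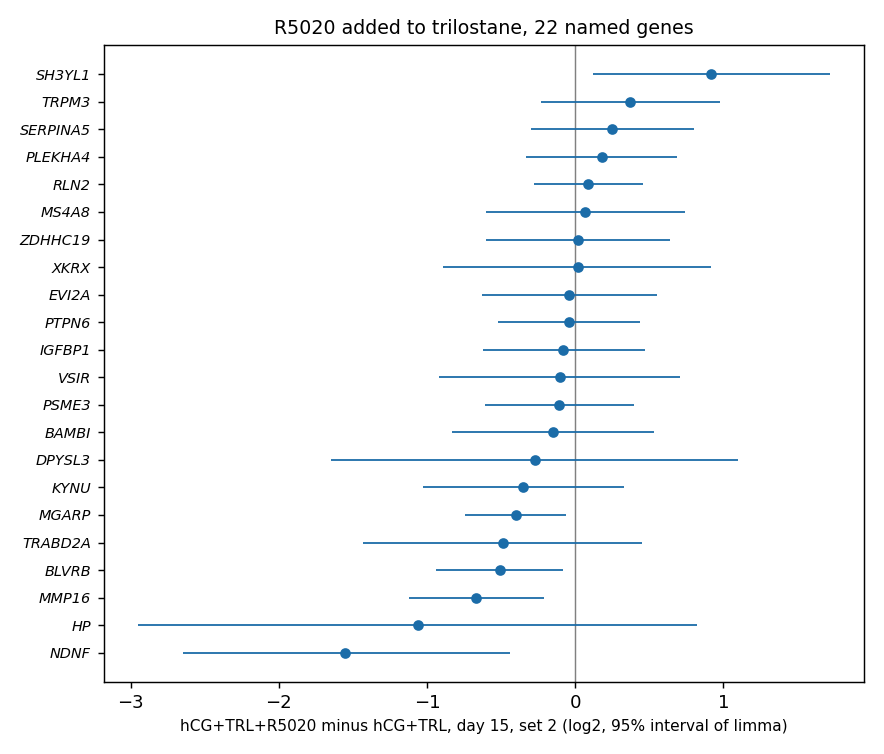
Difference between day 15 hCG+TRL+R5020 and day 15 hCG+TRL in set 2 (horizontal axis, log2) for the 22 named genes, with limma's 95% interval as bars. Intervals for 17 of the 22 genes include 0, and none of the differences passed adjustment.

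TRL against hCG alone at day 15 could not be tested on arrays the choice had not used. Set 3 holds 1 array of each, on which the 70 genes differed by a median of 0.29, from -2.10 for AZIN2 to 3.76 for HP. The hCG array in that pair is replicate 3, which differed from replicate 5 by -0.45 to 0.42 over the 70 genes.

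For 26 of the 70 genes at least 1 further probe set lay above the median signal, 45 in all. Of these, 36 were above untreated tissue in day 15 hCG in set 1, 21 of them by at least 0.8. In day 15 hCG+TRL against control, 36 of the 45 lay above 0, against 47.4% of the 8407 genes. Limma called 11 of the 45 higher, against 1.45% of all probe sets. In the step from day 10 to day 15 with R5020, 2 of the 45 were called higher, against 0.142% of all probe sets. These were probe sets of PLEKHA4 (0.92, limma adjusted p = 0.034) and PGAP4 (0.86, adjusted p = 0.049).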

How the data were processed

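Total RNA of 33 samples of luteal tissue was hybridised to Affymetrix Rhesus Genome arrays, per the labels. The deposited table holds 1 normalised log2 signal for each of 52865 probe sets and each array. How the authors corrected background, normalised and with which software is not given in the sources used here, so how they compress high or low signals is unknown; array medians of 6.13 to 6.32 limit any overall shift. Array numbers limit the precision.

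GEO's platform annotation gives 24956 probe sets 1 symbol, 361 several and 27449 none. Genes were taken by the rule stated at the opening of the report; the probe set of a gene was that with the highest mean over all 33 arrays, set 2 included. The 99 control probe sets were left out. Limma 3.58.1 in R 4.3.3 (lmFit, eBayes with trend) was fitted to the 14 arrays of set 2 by group, with no filter, and p-values were adjusted by Benjamini-Hochberg over 52766 probe sets, with a threshold of 0.05. The script was tested on simulated data. Intervals are limma's 95% intervals.

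The members and lists were chosen with earlier results of these data known, and the function groups after the members. Named genes were the 12 with the largest set 1 rise and, per comparison, the 5 (3 for day 10) passing members with the smallest adjusted p in each direction, or the 3 largest differences where none passed; others are examples of a group. Alternatives were other scalings, a filter on low signals, array sets 2 and 3 or all 33 arrays with a set term, a replicate block and leaving out each array. No sequences or coordinates were used here.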

Additional observations from a re-analysis of the deposited data

Results flagged for a closer look

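In 154 gene-by-group sets of 4 to 8 arrays (22 named genes, 7 groups, array sets combined), 17 had 1 array whose gap to the nearest other array exceeded Dixon's 95% limit; chance gives about 1 in 20.

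Several touch results given above. With TRL and R5020 at day 15, replicate 3 was low for DPYSL3 (8.51, nearest other 11.15) and XKRX (7.51, nearest 9.40), and replicate 1 was high for BLVRB (10.18, nearest 10.02). With TRL at day 15, replicate 3 was low for NDNF (7.17, nearest 8.20) and SH3YL1 (5.54, nearest 6.22). MMP16 was high in the set 3 arrays with TRL (8.90, nearest 7.49) and with TRL and R5020 (8.86, nearest 6.94), and in day 15 hCG replicate 1 (8.98, nearest 7.99). Among the controls, RLN2 was low in replicate 1 (11.62, nearest 13.63), SERPINA5 was high in replicate 2 (11.99, nearest 10.22) and BLVRB was high in replicate 7 (9.77, nearest 9.21).

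In day 10 hCG, TRABD2A was low in replicate 1 (7.08, nearest 9.68) and ZDHHC19 high in replicate 4 (9.78, nearest 8.99). PLEKHA4 was high in day 10 hCG+TRL replicate 2 (7.56, nearest 6.84) and in day 15 hCG replicate 2 (9.60, nearest 8.39). In day 10 hCG+TRL+R5020, KYNU was high in replicate 2 (9.30, nearest 8.70) and EVI2A low in replicate 1 (6.66, nearest 7.28). Replicates 3 and 5 of day 15 hCG, nearly identical, were both counted in that group.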

How the results depend on the processing

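The member counts of day 15 hCG+TRL against control were 24 higher and 0 lower, and centring on medians, quantile normalisation, a filter on low signals, sets 2 and 3 with a set term and all 33 arrays with a set term gave 24, 24, 30, 30 and 36 higher and 0 lower. With R5020 added, the 16 calls became 30 in the fit of all 33 arrays. That fit includes the 12 arrays the rule used, with controls 1 to 4 among its controls. Its member counts, the 36 with TRL included, are therefore not independent of the choice of genes. In day 10 hCG+TRL+R5020 against control, the 0 calls became 1 with the filter, 1 with sets 2 and 3 and 1 with all 33 arrays. From day 10 to day 15 with R5020, the 10 higher calls became 18 with all 33 arrays and the 1 lower call became 0. The cause of these changes was not tested. The fits with set 3 include the near-identical replicate 4 arrays. Leaving out 1 array of set 2 at a time gave 17 to 29 members higher with TRL, 6 to 18 with TRL and R5020, 0 to 2 at day 10, and 4 to 13 higher and 0 to 1 lower between day 10 and day 15. R5020 against TRL alone at day 15 gave 0 members in either direction under every alternative run. Of 35 calls of named genes, 19 passed in every setting and 0 changed direction.

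Replicate numbers are shared by the treated groups of set 2. Same-numbered arrays did not deviate together (r = -0.216, -0.125 and -0.135 between day 10 and day 15 with R5020; 0.068, 0.024 and 0.173 between the day 15 groups), so the numbers were not taken as pairs. These numbers are those of the source names; the titles number 2 of the 3 day 15 hCG+TRL arrays differently, and the 2 pairs of day 15 arrays that share a title number gave r = 0.068 and -0.127. With a replicate block, the calls from day 10 to day 15 were 6 higher and 1 lower, and RLN2 was not called (limma adjusted p = 0.089). Over all probe sets in that step the block gave 32 higher in place of 75 and 188 lower in place of 163.

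Over all probe sets, all 33 arrays with a set term gave 1138 higher and 1240 lower with TRL in place of 763 and 684, 492 higher with R5020 added in place of 132, 126 and 178 at day 10 in place of 55 and 51, and 251 and 350 between day 10 and day 15 in place of 75 and 163. Taking the mean of a gene's probe sets in place of the brightest left 46 genes meeting the rule, 42 of them among the 70. The small numbers of arrays leave differences under about the median half-width of 0.64 undecided for R5020.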
